A study of Mus musculus with 16 samples.

Results

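Potassium channel genes were examined in the medial prefrontal cortex (mPFC) of mice that had received an shRNA virus against the histone demethylase gene Kdm7a and had been conditioned with morphine or saline. A gene was included when it was listed as a known gene and its symbol began with Kcn, which gave 93 of the 19069 known genes and of the 26625 genes in all. Of these 93 genes, 67 had enough reads to be tested and 26 did not. They comprise the pore-forming subunits of potassium channels and the subunits named with them that assemble onto the pore.

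Potassium channels let potassium leave the neuron, which draws the membrane away from the firing threshold, shortens the action potential and spaces repeated firing. Opioid receptors such as the mu receptor activate Gi/o proteins, whose beta-gamma subunits open G protein-gated inward rectifiers (GIRK channels) and thereby quiet the neuron. GIRK channels are tetramers of the Kir3 subunits encoded by Kcnj3 (GIRK1), Kcnj6 (GIRK2), Kcnj9 (GIRK3) and Kcnj5 (GIRK4).

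All 16 animals were male C57BL/6 mice of 8 to 10 weeks that received a bilateral mPFC injection of an AAV that expresses an shRNA from the U6 promoter and EGFP from the CMV promoter, went through conditioning and were sampled on the 7th day of withdrawal after the second post-conditioning test. The Ctrl + Saline (n = 3) and Ctrl + Morphine (n = 4) groups carried a non-targeting shRNA, and the shRNA against Kdm7a was carried by the Kdm7a-shRNA + Saline group (n = 5) and by the Kdm7a-shRNA + Morphine group (n = 4). The morphine groups were given morphine at 10 mg/kg alternating with saline, and the saline groups were given saline only. Neither promoter restricts the virus to a cell type and bulk tissue was sequenced, so that fewer cells of a type and less RNA per cell cannot be told apart.

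Full-length cDNA was sequenced on the Nanopore platform, and 6596991 to 12418112 reads per mouse were counted on genes, of which 0.122 to 0.188% (9905 to 17251 reads) fell on Kcn genes. Levels are given as normalized CPM, that is, counts scaled to a common library size (CPM) with edgeR's TMM factors. A level of 3 counts, taken as the detection floor, corresponded to 0.258 to 0.460 normalized CPM depending on the mouse. Kdm7a was at 9.08 to 9.78 in the Ctrl + Saline, 6.19 to 8.89 in the Ctrl + Morphine, 4.92 to 6.07 in the Kdm7a-shRNA + Saline and 3.01 to 6.28 in the Kdm7a-shRNA + Morphine mice, with log2 fold changes by knockdown of -0.76 under saline (adjusted p = 0.0153) and -0.67 under morphine (adjusted p = 0.0506). All 4 neuronal markers (Rbfox3, Snap25, Syt1 and Tubb3) were present. Their sum was 1805 to 2313 normalized CPM in the Ctrl + Saline and 1550 to 2483 in the Ctrl + Morphine mice. It was 1403 to 2331 in the Kdm7a-shRNA + Saline and 1462 to 2528 in the Kdm7a-shRNA + Morphine mice. By knockdown 4 of the 4 log2 fold changes were negative under saline (median -0.21) and 2 under morphine (median 0.03), with 0 called. The microglial markers moved with the virus, since the sum of Cx3cr1, P2ry12, Tmem119, Csf1r and C1qa was 479 to 580 in the Ctrl + Saline, 273 to 510 in the Ctrl + Morphine, 709 to 2046 in the Kdm7a-shRNA + Saline and 482 to 1866 in the Kdm7a-shRNA + Morphine mice. Of these 5 markers, 4 were higher by knockdown under saline and 2 under morphine. The inhibitory neuron markers (Gad1, Gad2, Slc32a1, Pvalb and Sst) summed to 409 to 460 in the Ctrl + Saline, 441 to 483 in the Ctrl + Morphine, 289 to 381 in the Kdm7a-shRNA + Saline and 332 to 428 in the Kdm7a-shRNA + Morphine mice. Its members went opposite ways: under saline Slc32a1 (log2 fold change 1.10) and Pvalb (0.68) were called higher and Sst (-1.14) and Gad2 (-0.63) lower, and under morphine Pvalb (0.81) was higher and Sst (-0.99) lower. Of the excitatory neuron markers, Camk2a (-0.72, adjusted p = 0.0612) and Neurod6 (-0.73, adjusted p = 0.0533) did not pass in edgeR under saline but were called lower by DESeq2, and Slc17a7 had 0.08 (adjusted p = 0.777). Of 5 endothelial and pericyte markers, 3 (Cldn5, Flt1 and Pecam1) were called higher under saline and 1 (Pecam1) under morphine, the sum being 66.5 to 105 in the Ctrl + Saline, 77.7 to 106 in the Ctrl + Morphine, 99.8 to 143 in the Kdm7a-shRNA + Saline and 85.6 to 160 in the Kdm7a-shRNA + Morphine mice. Within the Kdm7a-shRNA + Saline group, replicate 4 stood apart, with the lowest microglial sum (709, the others 966 to 2046) and the highest sum of the 4 neuronal markers (2331, the others 1403 to 1814). In the Kdm7a-shRNA + Morphine group, replicate 3 had the highest microglial sum (1866, the others 482 to 832). Its sum of the 4 neuronal markers was the lowest of that group (1462, the others 1778 to 2528). The part of these markers in the results that follow was not tested.

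A gene was called changed when its adjusted p in edgeR's quasi-likelihood test was under 0.05 and its fold change at least 1.5. Kdm7a knockdown changed 5 of the 67 tested Kcn genes (7.46%) under saline. Of these, 3 were higher, among them Kcnn2 and Kcne1l, and 2 were lower, Kcnt1 and Kcnk10. In that comparison 16.7% of all tested genes and 12% of the known genes were called. Under morphine, knockdown changed 2 of 67 (2.99%), Kcng2 and the GIRK gene Kcnj9, both lower, against 7.69% of all tested and 4.64% of the known genes. In this fit both shares of Kcn genes were below those of all tested and of the known genes, and the gaps were not tested. Counts of calls under other settings are given without a background share, so they cannot separate a change in Kcn genes from one in all genes. The median log2 fold change of the 67 genes was -0.15 under saline and -0.03 under morphine, where that of the known genes was 0.10 and 0.04. An unadjusted p under 0.05 was reached by 22 of the 67 under saline and 9 under morphine. It was reached by 34.7% and 25.5% of all tested genes and by 30.2% and 21.7% of the known genes. The calls depended on the scaling: with library size only, which moves the median of all genes by -0.13 under saline and -0.11 under morphine, 9 genes were called under saline (2 higher and 7 lower) and 6 under morphine (all 6 lower). Leaving out 1 mouse under saline gave 1 call without Ctrl + Saline replicate 2, 2 without Kdm7a-shRNA + Saline replicate 2 or 3, 3 without Ctrl + Saline replicate 3 or Kdm7a-shRNA + Saline replicate 5, and 11 without Kdm7a-shRNA + Saline replicate 4. Under morphine it gave 0 calls without Ctrl + Morphine replicate 4 or Kdm7a-shRNA + Morphine replicate 3 and 1 without Ctrl + Morphine replicate 1 or Kdm7a-shRNA + Morphine replicate 2. Of these mice, Kdm7a-shRNA + Morphine replicate 3 was the one with the highest microglial sum of its group.

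**Figure D1:**
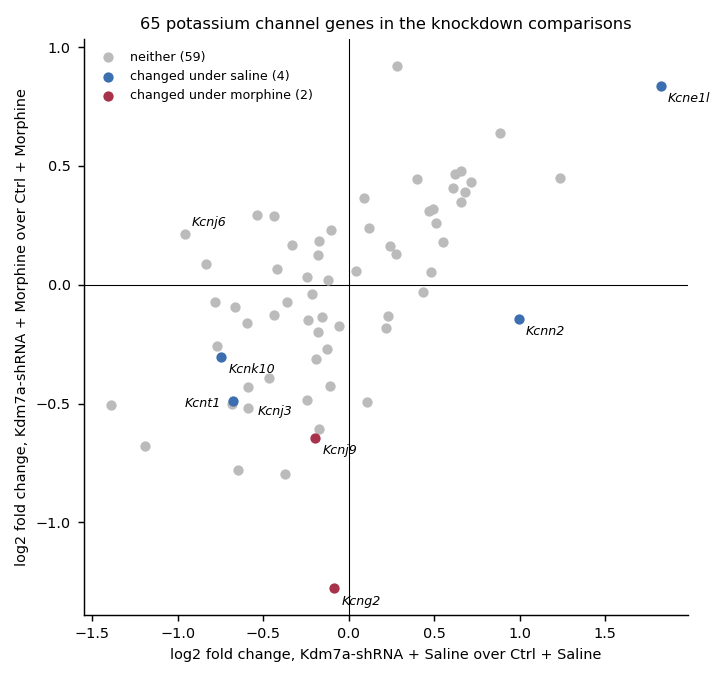
Each point is 1 of 65 tested potassium channel genes, with its log2 fold change by Kdm7a knockdown in the saline mice on the x axis and in the morphine mice on the y axis. The 4 genes shown that were called under saline are blue and the 2 called under morphine are red, and Kcnn2 stands far to the right but close to 0 on the y axis.

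The knockdown comparisons used different mice, and 51 of the 67 genes (76.1%) had the same sign in both, 29 of them negative and 22 positive. The corresponding share was 65.3% of the known genes and 67.9% of all tested genes.

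Of the GIRK genes, which encode the channels that opioid receptors open, Kcnj9 was called lower by knockdown under morphine. Kcnj9 (ENSMUSG00000038026, GRCm38 chromosome 1, 172320501 to 172329318, minus strand) encodes GIRK3, a subunit that joins the other GIRK subunits in heteromeric channels. Kcnj3 (ENSMUSG00000026824, chromosome 2, 55435970 to 55598145, plus strand) encodes GIRK1, which needs a partner subunit to form channels at the membrane, and Kcnj6 (ENSMUSG00000043301, chromosome 16, 94748636 to 94997701, minus strand) encodes the partner GIRK2. The 150 bases before the RefSeq start of these genes (GRCm38.p6) are shown to place the channel genes that carry the opioid response, written 5′ to 3′ on the strand of the gene with every CpG in capitals. They lie at chr1:172329323-172329472 for Kcnj9, chr2:55435820-55435969 for Kcnj3 and chr16:94997697-94997846 for Kcnj6.
Kcnj9: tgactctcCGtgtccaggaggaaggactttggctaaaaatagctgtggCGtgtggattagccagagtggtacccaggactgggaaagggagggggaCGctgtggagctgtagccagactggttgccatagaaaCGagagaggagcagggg
Kcnj3: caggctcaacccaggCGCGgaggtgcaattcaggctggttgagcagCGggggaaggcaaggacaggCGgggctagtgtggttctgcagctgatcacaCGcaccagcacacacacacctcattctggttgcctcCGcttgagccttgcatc
Kcnj6: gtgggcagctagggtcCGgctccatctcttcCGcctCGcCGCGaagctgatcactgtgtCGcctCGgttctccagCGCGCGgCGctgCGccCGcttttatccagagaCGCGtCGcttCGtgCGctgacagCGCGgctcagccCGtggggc
The window of Kcnj9 held 4 CpG and that of Kcnj3 held 6, where the median over 32851 RefSeq promoters was 4. The window of Kcnj6 held 21, a number reached by 5.12% of promoters. No mark was measured at these promoters in the values used here.

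Kcnj9 was at 33.6, 26.9 and 32.3 normalized CPM in the Ctrl + Saline mice and at 43.4, 44.2, 32.1 and 47.9 in the Ctrl + Morphine mice. It was at 32.1, 22.2, 19.0, 34.1 and 27.5 in the Kdm7a-shRNA + Saline mice and at 29.7, 27.5, 22.9 and 27.4 in the Kdm7a-shRNA + Morphine mice. Every Kdm7a-shRNA + Morphine mouse was thus below every Ctrl + Morphine mouse, while the saline groups overlapped. The log2 fold change by knockdown was -0.65 under morphine (SE 0.175, adjusted p = 0.0280), a level of 0.639 times that of the Ctrl + Morphine group. Under saline it was -0.20 (SE 0.18, adjusted p = 0.469), and the difference between these knockdown effects was -0.45 (SE 0.25, adjusted p = 0.554). The call under morphine did not hold without Ctrl + Morphine replicate 1 (adjusted p = 0.0628), Ctrl + Morphine replicate 4 (0.0945), Kdm7a-shRNA + Morphine replicate 2 (0.0502) or Kdm7a-shRNA + Morphine replicate 3 (0.0969), with log2 fold changes between -0.66 and -0.57.

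Kcnj3 was at 10.4, 10.1 and 11.5 in the Ctrl + Saline mice and at 7.47, 4.38, 4.50, 12.1 and 7.04 in the Kdm7a-shRNA + Saline mice. It was at 12.5, 11.4, 12.3 and 8.02 in the Ctrl + Morphine mice and at 9.81, 6.83, 4.55 and 10.1 in the Kdm7a-shRNA + Morphine mice. The groups overlapped under both treatments, through Kdm7a-shRNA + Saline replicate 4 under saline. The log2 fold changes by knockdown were -0.59 (SE 0.30, adjusted p = 0.171) and -0.52 (SE 0.29, adjusted p = 0.278), neither of which passed the test, and without Kdm7a-shRNA + Saline replicate 4 the first was -0.87 (adjusted p = 0.0258).

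Kcnj6 had 8 to 24 counts per mouse. It was at 2.51, 2.34 and 2.65 normalized CPM in the Ctrl + Saline mice and at 1.26, 0.922, 0.948, 2.14 and 1.11 in the Kdm7a-shRNA + Saline mice, which did not overlap. The log2 fold change was -0.96 (SE 0.37), short of the threshold at an adjusted p of 0.0721, and it was past it in 2 of the 7 other settings that kept every mouse, library size only (0.0450) among them, and without Kdm7a-shRNA + Saline replicate 4 (adjusted p = 0.0238). Over these 7 settings the adjusted p ran from 0.0276 to 0.0868. Under morphine it was 0.22 (SE 0.36, adjusted p = 0.763) between overlapping groups of 0.974 to 2.24 and 1.12 to 2.82. Kcnj5, which encodes the GIRK4 subunit known mainly from the heart, had 0 to 4 counts per mouse, 12 in all, and was not tested. A count of 0 allows a level of up to 3 counts in that mouse.

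**Figure D2:**
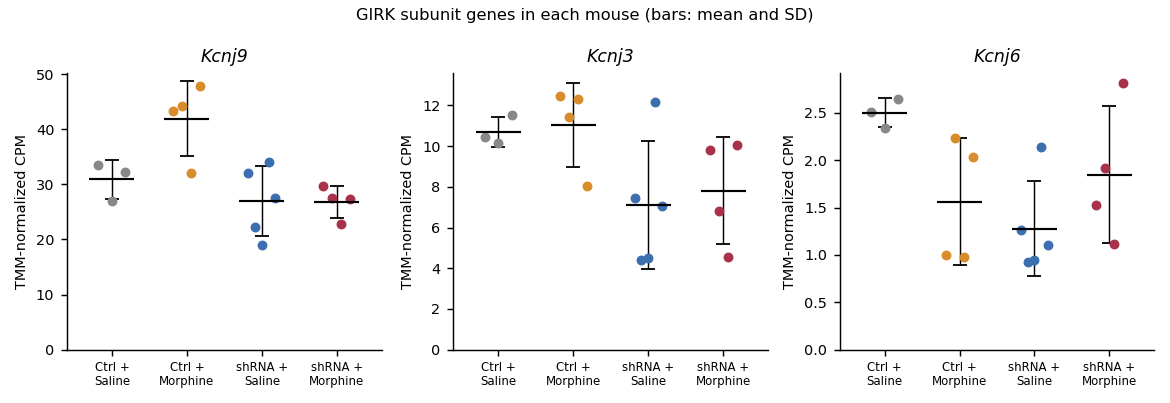
Normalized CPM of Kcnj9, Kcnj3 and Kcnj6 in each of the 16 mice (points) in the 4 groups, with bars for the mean and SD; shRNA stands for Kdm7a-shRNA. For Kcnj9 the 4 Kdm7a-shRNA + Morphine mice, between 22.9 and 29.7, lie below the 4 Ctrl + Morphine mice, between 32.1 and 47.9.

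The other inward rectifiers (Kir channels), which stabilize the resting potential and in glia clear potassium from around active neurons, had 9 of 10 genes tested, and 0 were called by edgeR or by DESeq2 in either knockdown comparison. At an unadjusted p under 0.05 there were 2 under saline and 1 under morphine. Kcnj10 encodes Kir4.1, the main Kir channel of astrocytes and oligodendrocytes. It was at 17.6, 13.3 and 15.2 in the Ctrl + Saline mice and at 25.4, 31.3, 33.2, 11.02 and 25.0 in the Kdm7a-shRNA + Saline mice, and its log2 fold change was 0.72 (SE 0.32, adjusted p = 0.120). The groups overlapped through Kdm7a-shRNA + Saline replicate 4, the mouse with the lowest microglial sum, and without that mouse Kcnj10 was called higher. Its partner subunit Kcnj16 (Kir5.1) had log2 fold changes of 0.66 (adjusted p = 0.0966) under saline and 0.48 (adjusted p = 0.268) under morphine. The sum of the astrocyte markers Aqp4, Gfap, Slc1a3, Aldh1l1 and Gja1 moved alongside, at 344 to 491 in the Ctrl + Saline, 267 to 499 in the Ctrl + Morphine, 472 to 1008 in the Kdm7a-shRNA + Saline and 386 to 984 in the Kdm7a-shRNA + Morphine mice, with 2 of 5 markers called higher by edgeR under saline and 0 under morphine. DESeq2 called 2 of the 5 higher under saline (Aldh1l1 and Gfap) and 2 under morphine (Aldh1l1 and Slc1a3). The log2 fold change by knockdown was positive for 4 of the 5 under saline and for 5 under morphine. The part of these markers in the levels of Kcnj10 and Kcnj16 was not tested. Kcnj4 (Kir2.3), an inward rectifier of forebrain neurons and the gene of this class with the most reads, had log2 fold changes of -0.19 (adjusted p = 0.463) and -0.31 (adjusted p = 0.268). Kcnj11, the pore of the ATP-sensitive potassium channel, had -0.18 (adjusted p = 0.569) and 0.18 (adjusted p = 0.590).

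K2P channels, which carry the background potassium leak and are opened or closed by stretch, acid and lipids, had 8 of 14 genes tested. Kcnk10 was called lower by knockdown under saline, and the median log2 fold change of the 8 was 0.49 under saline and 0.19 under morphine. Kcnk10 (ENSMUSG00000033854, chromosome 12, 98429437 to 98578310, minus strand) encodes the mechanosensitive channel TREK-2. It was at 3.57, 4.39 and 6.23 in the Ctrl + Saline mice and at 2.30, 2.88, 2.96, 2.47 and 3.42 in the Kdm7a-shRNA + Saline mice, which did not overlap. Its log2 fold change was -0.74 (SE 0.236, adjusted p = 0.0334) from 20 to 55 counts per mouse. Under morphine it was -0.30 (adjusted p = 0.436) with overlapping groups. The call held without Ctrl + Saline replicate 1 or Kdm7a-shRNA + Saline replicate 5 and was lost without any other of the 8 mice, at adjusted p-values of 0.0507 to 0.195. Of the 8 other settings that kept every mouse, the fit of the compared groups only also lost it (adjusted p = 0.0543).

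Kcnk1 (TWIK-1), a leak channel of neurons and astrocytes, was at 102, 93.7 and 92.1 in the Ctrl + Saline mice and at 134, 133, 148, 127 and 129 in the Kdm7a-shRNA + Saline mice. These groups did not overlap, and the adjusted p was 0.0178, but the fold change of 1.40 was under the 1.5 required. Kcnk2 (TREK-1), the close relative of Kcnk10, had a fold change of 1.41 under saline (adjusted p = 0.0329), in the direction opposite to Kcnk10, and 1.25 under morphine (adjusted p = 0.186). Kcnk9 (TASK-3), an acid-sensitive leak channel that Gq-coupled receptors close, was at 11.5, 8.003, 10.5 and 10.2 in the Ctrl + Morphine mice and at 6.28, 5.40, 4.73 and 7.11 in the Kdm7a-shRNA + Morphine mice. The groups did not overlap, and the log2 fold change of -0.78 (SE 0.24) had an adjusted p of 0.0502, just above the threshold, while DESeq2 called it. Kcnk3 (TASK-1) had -0.61 under morphine (adjusted p = 0.0615). Kcnk13 (THIK-1), the leak channel of microglia, had log2 fold changes of 0.66 (adjusted p = 0.215) and 0.35 (adjusted p = 0.589), beside the microglial markers given above, whose part in it was not tested. Kcnk1, Kcnk2, Kcnk3, Kcnk9 and Kcnk13, like Kcnj10, Kcnj11 and Kcnj16, were singled out after their values had been seen.

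Calcium-activated channels of small conductance (SK channels) produce the afterhyperpolarization that follows spikes, and Kcnn2, which encodes SK2, had the smallest adjusted p of the 67 genes in the knockdown comparison under saline. Kcnn2 (ENSMUSG00000054477, chromosome 18) was at 17.8, 18.5 and 19.9 normalized CPM in the Ctrl + Saline mice and at 42.6, 40.7, 39.9, 29.1 and 34.4 in the Kdm7a-shRNA + Saline mice. The highest Ctrl + Saline mouse was well below the lowest Kdm7a-shRNA + Saline mouse, and the fold change was 1.99 (log2 0.99, SE 0.186, adjusted p = 0.00202) from 135 to 379 counts per mouse. It passed under all 8 other settings that kept every mouse and without each of the 8 mice compared, with log2 fold changes between 0.86 and 1.07.

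Under morphine the levels of Kcnn2 were 23.7, 40.4, 33.8 and 23.5 in the Ctrl + Morphine mice and 23.6, 26.3, 28.1 and 31.8 in the Kdm7a-shRNA + Morphine mice. These groups overlapped, and the log2 fold change was -0.14 (SE 0.17, adjusted p = 0.646), which turned to 0.03 without Ctrl + Morphine replicate 2. The interaction, that is, the log2 fold change by knockdown in the morphine mice minus that in the saline mice, was -1.14 (SE 0.25). It had the smallest adjusted p of the 67 genes in that test, 0.0772 in edgeR, which did not pass, and 0.00573 in DESeq2, which did. Over the 7 other settings that kept every mouse the adjusted p ran from 0.00573 to 0.109, and with 1 mouse left out from 0.0585 to 0.259. Kcnn1 (SK1) had log2 fold changes of 0.40 (adjusted p = 0.297) and 0.45 (adjusted p = 0.264), and Kcnn3 and Kcnn4, with at most 8 counts in a mouse, were not tested.

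The Slo family comprises the large-conductance calcium-activated BK channel, the sodium-activated channels Slack and Slick and the pH-sensitive Slo3. By knockdown under saline 4 of 4 genes had negative log2 fold changes, with a median of -0.67, and 1 was called. Kcnt1 (ENSMUSG00000058740, chromosome 2, 25863734 to 25918273, plus strand) encodes Slack, the sodium-activated channel that follows bursts of firing. It was at 68.5, 102 and 69.0 in the Ctrl + Saline mice and at 57.0, 49.7, 39.6, 52.8 and 51.1 in the Kdm7a-shRNA + Saline mice. It was at 73.7, 81.6, 90.8 and 106 in the Ctrl + Morphine mice and at 55.8, 67.6, 57.5 and 69.6 in the Kdm7a-shRNA + Morphine mice. The virus groups did not overlap under either treatment. The log2 fold change was -0.68 under saline (SE 0.156, adjusted p = 0.00680) and -0.49 under morphine (SE 0.153, adjusted p = 0.0521), which did not pass. The call under saline held under all 8 other settings that kept every mouse and was lost without Ctrl + Saline replicate 2 (log2 fold change -0.45, adjusted p = 0.0679). Kcnma1, the BK pore, had -0.67 (adjusted p = 0.127) and -0.09 (adjusted p = 0.880), and Kcnt2 (Slick) had -0.77 (adjusted p = 0.0716) and -0.26 (adjusted p = 0.609). Kcnu1 (Slo3), known mainly from sperm, had -0.18 (adjusted p = 0.768) and 0.13 (adjusted p = 0.847). These genes were named for their place in the class after their values had been seen.

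The voltage-gated (Kv) pores divide into classes by speed and place of action. In 5 of these classes edgeR and DESeq2 called 0 genes in either knockdown comparison. These were the Kv1 channels of axons (5 of 8 tested) and the Kv2 channels of the soma (2 of 2). Also among them were the A-type Kv4 channels of dendrites (3 of 3) and the Kv7 channels that carry the M current (3 of 5). The EAG, ERG and ELK channels (6 of 8) were the last of the 5. Under saline an unadjusted p under 0.05 was reached by 2 Kv1 and 2 Kv2 genes and under morphine by 0. Kcna6 (Kv1.6), the Kv1 gene with the most reads, had log2 fold changes of 0.24 (adjusted p = 0.178) and 0.16 (adjusted p = 0.422). Kcnd3 (Kv4.3) had -0.13 (adjusted p = 0.736) and -0.27 (adjusted p = 0.489), and Kcnh1 (EAG1) -0.47 (adjusted p = 0.204) and -0.39 (adjusted p = 0.344). Kcnb2 (Kv2.2), a delayed rectifier, was at 2.51, 4.001 and 2.78 in the Ctrl + Saline mice and at 2.18, 2.30, 1.18, 1.69 and 1.41 in the Kdm7a-shRNA + Saline mice. These groups did not overlap, but the log2 fold change of -0.83 (SE 0.37) had an adjusted p of 0.122.

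Silent Kv subunits form no channel alone and alter the Kv2 channels they join. Of 10 such genes 7 were tested, and Kcng2 was called lower by knockdown under morphine. Kcng2 (ENSMUSG00000059852, chromosome 18), which encodes Kv6.2, was at 2.20, 1.92, 1.22 and 2.25 in the Ctrl + Morphine mice and at 0.919, 0.839, 0.601 and 0.805 in the Kdm7a-shRNA + Morphine mice, which did not overlap. The log2 fold change was -1.28 (SE 0.309, adjusted p = 0.0176), a level of 0.412 times that of the Ctrl + Morphine group, from only 6 to 22 counts per mouse. Under saline the groups lay at 1.06 to 1.37 and 0.704 to 1.35, and the log2 fold change was -0.09 (adjusted p = 0.877). The difference between the knockdown effects was -1.19 (SE 0.45, adjusted p = 0.316) and did not pass. The call under morphine was lost without Ctrl + Morphine replicate 4 (adjusted p = 0.0604) and without Kdm7a-shRNA + Morphine replicate 3 (adjusted p = 0.0733). The other silent subunits were not called, and 6 of the 7 were negative under each treatment, with medians of -0.25 and -0.16.

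**Figure D3:**
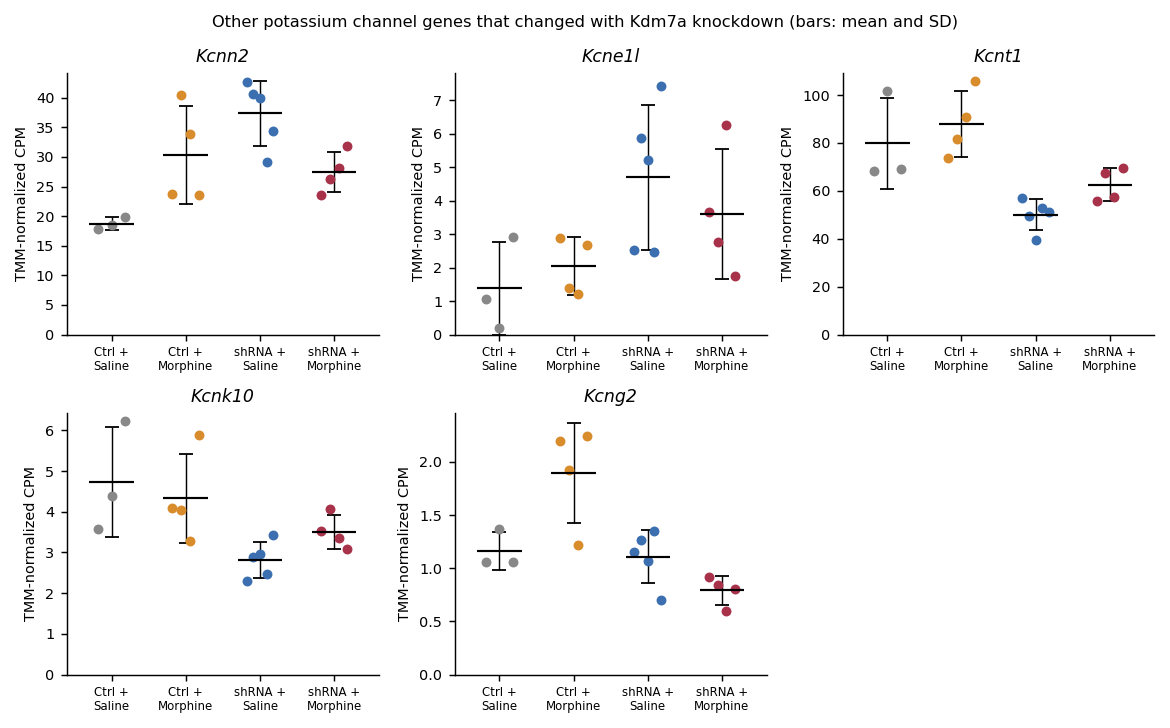
Normalized CPM of Kcnn2, Kcne1l, Kcnt1, Kcnk10 and Kcng2 in each of the 16 mice (points) in the 4 groups, with bars for the mean and SD; shRNA stands for Kdm7a-shRNA. Kcnn2, Kcnt1 and Kcnk10 separate the saline groups by virus, Kcng2 separates the morphine groups, and Kcne1l overlaps in both.

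The auxiliary subunits change the gating or transport of the pores. Among the KCNE subunits, small single-pass proteins, 2 of 5 genes were tested, and Kcne1l (ENSMUSG00000090122, chromosome X, 142304752 to 142306294, minus strand) was called higher by knockdown under saline. It was at 1.06, 0.195 and 2.91 in the Ctrl + Saline mice, where replicate 2 had 2 counts, and at 2.53, 5.88, 5.21, 2.47 and 7.44 in the Kdm7a-shRNA + Saline mice. The groups overlapped, since 2 of the 5 Kdm7a-shRNA + Saline mice were below the highest Ctrl + Saline mouse. The log2 fold change was 1.83 (SE 0.598, adjusted p = 0.0389), and under morphine it was 0.84 (adjusted p = 0.343). The call was lost without Ctrl + Saline replicate 1 or 2 and without Kdm7a-shRNA + Saline replicate 2, 3 or 5, at adjusted p-values up to 0.167. It was also lost in 2 of the 7 other settings that kept every mouse, with known genes only (adjusted p = 0.0650) and with the compared groups only (0.0544). The value rested much on Ctrl + Saline replicate 3, without which it was 2.97.

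The Kv beta subunits, which bind the inner face of Kv1 channels, had 3 of 3 genes tested and 0 called by edgeR or DESeq2, with 2 at an unadjusted p under 0.05 under saline and 0 under morphine. Kcnab2 was at 196, 203 and 159 in the Ctrl + Saline mice and at 285, 217, 222, 319 and 245 in the Kdm7a-shRNA + Saline mice, which did not overlap. Its adjusted p was 0.0441 with a fold change of 1.38, under the 1.5 required, and under morphine the fold change was 1.24 (adjusted p = 0.205). The KChIP calcium sensors, which bind Kv4 channels, had 4 of 4 tested and 0 called by edgeR or DESeq2, with 1 at an unadjusted p under 0.05 under saline and 0 under morphine. Kcnip4, the one with the most reads, had log2 fold changes of 0.04 (adjusted p = 0.910) and 0.06 (adjusted p = 0.884), and its exons overlap those of a gene on the opposite strand. Of the BK beta subunits, Kcnmb4, the neuronal form that slows BK gating, was at 20.5, 22.1, 16.6 and 19.4 in the Ctrl + Morphine mice and at 13.0, 13.6, 13.0 and 16.2 in the Kdm7a-shRNA + Morphine mice. These groups did not overlap, but the log2 fold change of -0.49 (SE 0.16) had an adjusted p of 0.0618. Kcnmb2, the inactivating form, had -1.39 under saline (adjusted p = 0.0671), which DESeq2 called and edgeR did not.

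**Figure D4:**
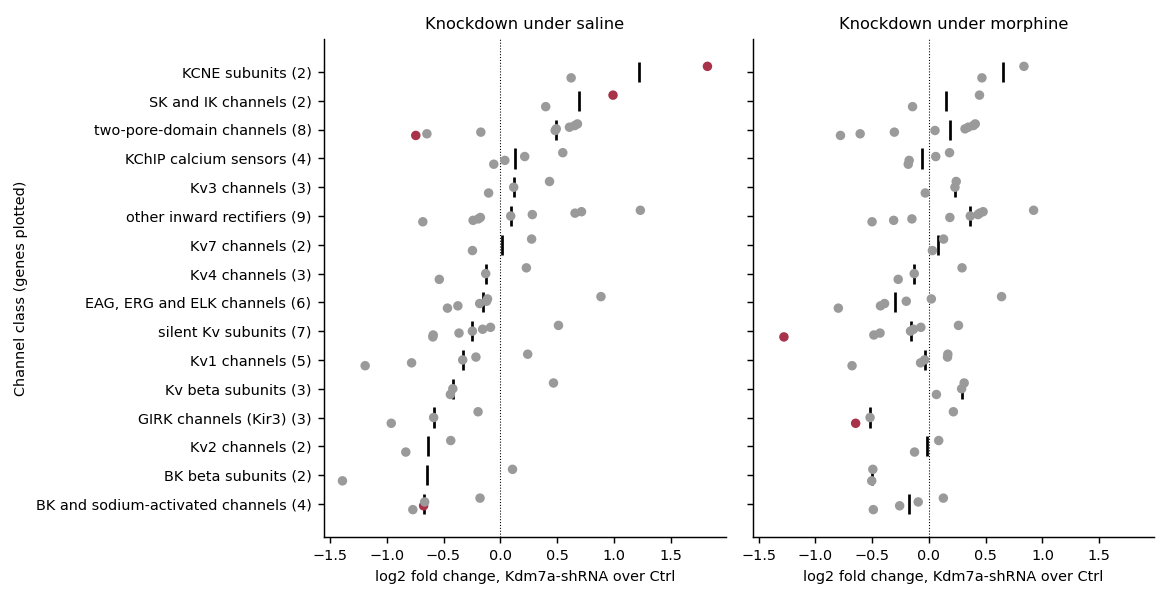
Log2 fold changes by Kdm7a knockdown of 65 tested genes (points), by channel class, in the saline mice on the left and the morphine mice on the right, with a black line at the median of the points of each class and called genes in red. The 4 genes drawn as BK and sodium-activated channels, which include Kcnu1, all lie left of 0 under saline, and the K2P class spreads to both sides in both panels.

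Morphine conditioning under the control virus changed 0 of the 67 genes in edgeR's test, where 0% of all tested genes were called. In edgeR an unadjusted p under 0.05 was reached by 5 of the 67, by 11.7% of all tested and by 12.6% of the known genes. DESeq2 called 1 of the 67, Kcnn2, and the share of all genes that it called is not given here. The comparison used the same Ctrl mice as the knockdown comparisons. Kcnn2 was at 17.8 to 19.9 in the Ctrl + Saline and 23.5 to 40.4 in the Ctrl + Morphine mice, which did not overlap. Its log2 fold change was 0.69 (adjusted p = 0.165 in edgeR and 0.0499 in DESeq2), with adjusted p-values of 0.0499 to 0.202 over the settings that kept every mouse. Kcnmb4 had the next smallest p, at 12.7 to 17.6 and 16.6 to 22.1, and its log2 fold change was 0.43 (adjusted p = 0.337). The GIRK genes had log2 fold changes of 0.44 for Kcnj9 (adjusted p = 0.367), 0.05 for Kcnj3 (adjusted p = 0.968) and -0.67 for Kcnj6 (adjusted p = 0.520). The median of the 67 genes was 0.15, with 48 positive and 19 negative, where the median of the known genes was 0.04.

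Morphine conditioning under knockdown also changed 0 of the 67 genes in edgeR and 0 in DESeq2, where edgeR called 0.00531% of all tested genes (1 gene). In edgeR 11 of the 67 reached an unadjusted p under 0.05, which 7.02% of all tested and 7.4% of the known genes did. Kcnb2 had the smallest p, at 2.18, 2.30, 1.18, 1.69 and 1.41 in the Kdm7a-shRNA + Saline mice and 5.36, 2.64, 1.72 and 4.70 in the Kdm7a-shRNA + Morphine mice. The groups overlapped, and the log2 fold change of 1.00 (SE 0.35) had an adjusted p of 0.627. Kcnn2 followed at 29.1 to 42.6 and 23.6 to 31.8, and its log2 fold change was -0.44 (adjusted p = 0.661). The GIRK genes had -0.01 for Kcnj9 (adjusted p = 0.993), 0.12 for Kcnj3 (adjusted p = 0.953) and 0.51 for Kcnj6 (adjusted p = 0.800). The interaction of knockdown and morphine called 0 of the 67 genes in edgeR, which called 0.085% of all tested genes. In edgeR 8 of the 67, 10.7% of all tested and 11.8% of the known genes reached an unadjusted p under 0.05. DESeq2 called 1 of the 67, Kcnn2, and the share of all genes that it called is not given here.

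When the knockdown effects under saline and morphine were averaged in the same fit, a contrast added after both had been seen, 3 of the 67 genes (4.48%) were called, against 17.6% of all tested and 11.3% of the known genes. Kcne1l was higher (log2 fold change 1.33, adjusted p = 0.0187), and Kcng2 (-0.68, adjusted p = 0.0297) and Kcnk9 (-0.71, adjusted p = 0.00560) were lower. DESeq2 called Kcne1l, Kcnk9 and Kcnmb2, and the share of all genes that it called is not given here. Kcnt1, at -0.58 (adjusted p = 0.000848), was just under the 1.5-fold limit, and Kcnj9, at -0.42 (adjusted p = 0.0181), was further below it. Leaving out 1 mouse gave 1 call without Kdm7a-shRNA + Morphine replicate 3, 5 without Ctrl + Saline replicate 3 or Ctrl + Morphine replicate 2, 6 without Kdm7a-shRNA + Saline replicate 1 or Kdm7a-shRNA + Morphine replicate 1, 7 without Ctrl + Saline replicate 1, Kdm7a-shRNA + Saline replicate 4 or Kdm7a-shRNA + Morphine replicate 2, and 9 without Kdm7a-shRNA + Morphine replicate 4.

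The signalling genes upstream of GIRK channels were set beside the 12% of known genes called by knockdown under saline and 4.64% under morphine. Of 13 receptors that open these channels 12 were tested and 0 were called by edgeR or DESeq2 in the knockdown comparisons, with 1 at an unadjusted p under 0.05 under saline and 0 under morphine. Oprm1, the mu opioid receptor that morphine binds, was at 1.06 to 3.18 in the Ctrl + Saline and 2.25 to 4.48 in the Ctrl + Morphine mice, and at 0 to 4.61 and 0.134 to 3.597 in the knockdown mice under saline and morphine. Its log2 fold changes by knockdown were -0.77 (adjusted p = 0.567) and -1.40 (adjusted p = 0.322) at these low levels. Gabbr1, a subunit of the GABA-B receptor, had -0.19 (adjusted p = 0.293) and -0.18 (adjusted p = 0.378). Of 20 Gi/o proteins and their regulators, all tested, Gnai2 was called higher under saline (log2 fold change 0.76, adjusted p = 0.0200). Gnb4, a G protein beta subunit, was called lower under morphine (-0.85, adjusted p = 0.0105). The share called was 5% under each treatment. An unadjusted p under 0.05 was reached by 5 of the 20 under saline and 5 under morphine. It was reached by 34.7% and 25.5% of all tested genes and by 30.2% and 21.7% of the known genes. Of 14 partner proteins of potassium channels that are not named Kcn, such as Dpp6 and Dpp10 of the Kv4 complex, 12 were tested and 0 were called by edgeR or DESeq2 under either treatment, with 2 at an unadjusted p under 0.05 in each.

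Long genes stood lower in the knockdown comparison under saline. The log2 fold change went with the length of the longest coding transcript with a Spearman rho of -0.23 across the 14103 known genes with a length and -0.25 across the 67 Kcn genes. Genes are not independent replicates, and they share the same libraries. The Kcn genes had a median transcript length of 3922 bases against 3205 for the known genes. Split into tertiles of length, the known genes had medians of 0.20, 0.12 and -0.02 from short to long under saline, and the Kcn genes had 0.16 (10 genes), -0.17 (29 genes) and -0.23 (28 genes). Under morphine rho was -0.15 for the known and -0.06 for the Kcn genes, whose tertile medians were -0.06, 0.07 and -0.06. The part of length in the results was not tested.

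The 26 genes that were not tested had too few reads. They include Kcnj5 and Kcnj15 among the inward rectifiers, 6 K2P genes, Kcnn3 and Kcnn4, the Kv1 genes Kcna5, Kcna7 and Kcna10, Kcnq1, 3 silent subunits, 3 KCNE subunits and the channel regulator Kcnrg. None had more than 11 counts in a mouse, and 6 of them had 1 count in all. Changes in these genes were not detectable at this depth.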

How the data were processed

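Nanopore cDNA libraries of mPFC tissue from 16 mice were used. The deposited values were gene counts, with CPM beside them, from reads that the authors aligned with minimap2 (mm10, per the submitters' processing notes). The deposited CPM differed from count over column total by at most 4.99e-06 and was used only for that check. The notes also name edgeR 3.8.6.

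The tests ran on these counts in edgeR 4.0.16 (R 4.3.3), with filterByExpr, TMM scaling, 1 quasi-likelihood fit over the 4 groups, Benjamini-Hochberg adjustment over 18826 genes, and a call at adjusted p under 0.05 and a fold of at least 1.5. The 5 comparisons were knockdown under saline and under morphine, morphine under each virus, and their interaction. DESeq2 1.42.0, other scalings and filters, a replicate block and leaving out each mouse were alternatives. The fit was tested on simulated data. Named genes were the 4 GIRK genes, every called gene, the 2 with the smallest p in a comparison without calls, and the member with the most reads in each class without a named gene; others were chosen after their values were seen. The members and gene lists were chosen with earlier results of these data known. No 2 mice of a group agreed within sampling noise (chi-square per degree of freedom 8.33 to 51.2 over 25 pairs). Positions are those of GENCODE on GRCm38, and promoters those of RefSeq, which held 68 of the 93 genes. Floors cover counting error only. The SE of a log2 fold change was derived from the quasi-likelihood F statistic and so includes the spread between mice. Results that need certain genes are not reported here, and these genes are also left out of the figures.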

Additional observations from a re-analysis of the deposited data

Results flagged for a closer look

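Among 51 groups of 4 or 5 mice tested over 17 named genes, 2 held 1 mouse far from the others by Dixon's criterion, which chance meets in about 1 in 20 groups. Kcnj6 in Kdm7a-shRNA + Saline replicate 4 was at 2.14 normalized CPM, where the other mice of the group lay at 0.922 to 1.26. The same mouse held Kcnj5 at 0.450, from 4 counts, where the others were at 0. With all others at 0, any count meets the criterion, so the rate of 1 in 20 does not apply to Kcnj5. The Ctrl + Morphine group of Kcnj5, with 0 counts in every mouse, is among the 51 but could not be judged. The cause of these values was not tested.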

How the results depend on the processing

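Of 357 values of named genes under the alternatives, 309 kept their direction and side of the threshold, 40 no longer passed, 6 newly passed and 2 reversed. The 357 include comparisons in which the gene was not called in the main fit. Such values keep their side by staying uncalled, so 309 of 357 does not measure how firm the calls are. All 40 that no longer passed came from comparisons in which the gene was called. Both reversals were in the log2 fold change by knockdown under morphine. With 1 mouse left out it ranged for Kcnj6 from -0.059 (without Kdm7a-shRNA + Morphine replicate 4) to 0.44 (without Ctrl + Morphine replicate 2), and for Kcnn2 from -0.25 (without Ctrl + Morphine replicate 4) to 0.025 (without Ctrl + Morphine replicate 2). Under saline the 5 calls became 9 with library size only, 3 with at least 10 counts in every mouse, 3 with known genes only, 2 with the compared groups only, 8 by adjusted p alone and 1 to 11 with 1 mouse left out. Under morphine the 2 calls became 6 with library size only, 1 with at least 10 counts in every mouse and 0 to 3 with 1 mouse left out. DESeq2 gave 1 call in place of 0 for morphine under the control virus and 1 for the interaction. The averaged knockdown went from 3 calls to 9 with library size only, 6 with known genes only, 13 by adjusted p alone and 1 to 9 with 1 mouse left out. The cause was not tested, and the counts of calls in this section have no background share beside them. With the replicate number as a block the calls were 8 under saline, 3 under morphine and 4 averaged. Kcnj6 then passed under saline (-1.18, adjusted p = 0.0276). The study describes no pairing of mice by number. Deviations of same-numbered mice of different groups correlated with a median of 0.01 over 21 pairs (-0.10 to 0.39, 6 over 0.1). For differently numbered mice the median was -0.007 over 74 pairs (-0.47 to 0.32, 13 over 0.1). Whether the numbers mark a shared batch was not tested. The fit of the compared groups only gives no value for the interaction and the average. Depth limits genes of few counts such as Kcng2, Kcne1l and Kcnj6.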
